A study of Rattus norvegicus with 12 samples.

Results

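Tendon fascicles held under cyclic tensile strain for 24 h were compared with fascicles strained for 1 h, to describe what changes in tenocytes between an early and a late time of mechanical loading. The comparison took the 3 arrays titled as strained for 24 h and the 3 titled as strained for 1 h, 6 of the 12 arrays of the series, and no unstrained array entered it. The fascicles were the collagen bundles of rat tail tendon (Rattus norvegicus), isolated and loaded in vitro with their cells still inside their own matrix. The 4 groups were strained 24 h, strained 1 h, unstrained 24 h and unstrained 1 h, with 3 RNA samples each on Illumina rat bead arrays. The labels give no strain amplitude, frequency, animal age or sex, and leave unstated whether replicates are different animals or cultures. The p-values therefore cover the spread between these arrays, which may be technical. Time under strain and time since isolation run together within this comparison and cannot be told apart in it. The same 24 h against 1 h change in unstrained fascicles is therefore given near the end, over all probes and for some genes and lists.

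Tenocytes are the fibroblasts of tendon, which make and repair a matrix of fibrillar collagen whose fibril width is set by small leucine-rich proteoglycans. A mechanical or wounding stimulus switches on immediate early genes within minutes, among them the transcription factors Fos, Jun and Egr1, and feedback genes then shut this response off. Egr1 is also known as a factor that drives collagen and tendon genes in tenocytes. Fascicles taken out of the tail lose their resting tension, and unloaded tendon is known to turn on matrix proteinases.

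Values are intensities, already normalized between arrays by the authors, with a median of 57.0 and a maximum of 14804 on every array. A background level remains in them, so fold changes of genes that are dim in a group understate the change of the transcript. The 3 arrays at 24 h correlated at 0.980 to 0.984 over all probes and the 3 at 1 h at 0.969 to 0.979, against 0.930 to 0.959 between the times. The first principal component of the 6 arrays held 64.7% of the variance and parted the times. Of the defining markers of tendon, Tnmd (tenomodulin), Fmod (fibromodulin) and Thbs4 were bright, while Scx, Mkx and Comp have no named probe here. On the 6 strained arrays the endothelial marker Cdh5 ran from 47.2 to 56.1, the muscle marker Ckm from 45.8 to 67.6 and the epidermal marker Krt14 from 50.8 to 55.9, all near the array median. Other marker lists held brighter members, chosen after their values were seen. The Schwann cell marker Pmp22 ran from 831 to 948 at 24 h and from 2106 to 4133 at 1 h. The pericyte marker Cspg4 ran from 158 to 238 and the adipocyte marker Cfd from 65.4 to 322 over the 6 arrays. Most other members of these lists lay near the array median. Macrophage and leucocyte markers were uneven, with Ptprc near the median (47.2 to 59.8) and Cd14 (414.5 to 1164), Fcer1g (309 to 613) and, on the 1 h arrays, C1qb (324 to 604) well above it.

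After 24 h of strain, against 1 h, 23 of 33 immediate early genes, 7 of 10 small leucine-rich proteoglycans, 14 of 27 genes of fibrillar collagens and their processing enzymes and 14 of 30 genes of the unfolded protein response were lower. Higher were 39 of 53 genes of oxidative phosphorylation, 22 of 31 of the proteasome, 12 of 17 of cholesterol synthesis and 7 of 17 of glycolysis. Of these lists, that of fibrillar collagens and processing enzymes also held 3 enzymes that were higher, and cholesterol synthesis and glycolysis 1 each that was lower. The lists were chosen with earlier results of these data known. Here and below, a count set beside the share over all probes therefore describes a list and is not an independent test of it. Of 11258 kept probes, the brighter 50% of the array, limma called 1989, with Benjamini-Hochberg adjustment and a threshold of 0.05, which is 17.7% of those tested. Of these, 1129 were higher at 24 h (10.03% of those tested) and 860 were lower (7.64%), for 1541 named genes in all. These shares are the ones to set beside the count of any list under strain. The falls were the larger changes: 293 probes fell at least 2-fold and 59 at least 4-fold, against 174 and 11 that rose as far. For 1986 of the 1989 the 3 arrays at 24 h all lay on the same side of the 3 at 1 h, as they did for 34.4% of all kept probes. The calls and this parting rest on the same arrays, so the parting is no independent support for the calls. The count was 1060 without strained replicate 2 at 24 h. With cyclic loess normalization between arrays 890 were higher and 1024 lower, so the share of rises among the calls depended on the scaling, at 46.5% against 56.8%.

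Among named genes, the largest falls were those of 2 transcription factors of the immediate early response. Fos, a subunit of AP-1, had intensities of 64.9, 65.6 and 62.5 at 24 h of strain, against 535, 1099 and 1787 at 1 h. The 24 h arrays lay close to the array median and the 1 h arrays spread over a wide range well above it. Fos was 15.8-fold lower, which is -3.98 ± 0.37 as a log2 fold change (SE; limma adjusted p = 9.81e-04). Egr1 had 349, 119 and 134 at 24 h and 2868, 2887 and 2359.6 at 1 h, a log2 fold change of -3.93 ± 0.36 (adjusted p = 9.81e-04). Its 24 h arrays did not overlap the 1 h arrays, as the choice of the largest changes required, and replicate 1 was the highest of the 24 h arrays.

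**Figure D1:**
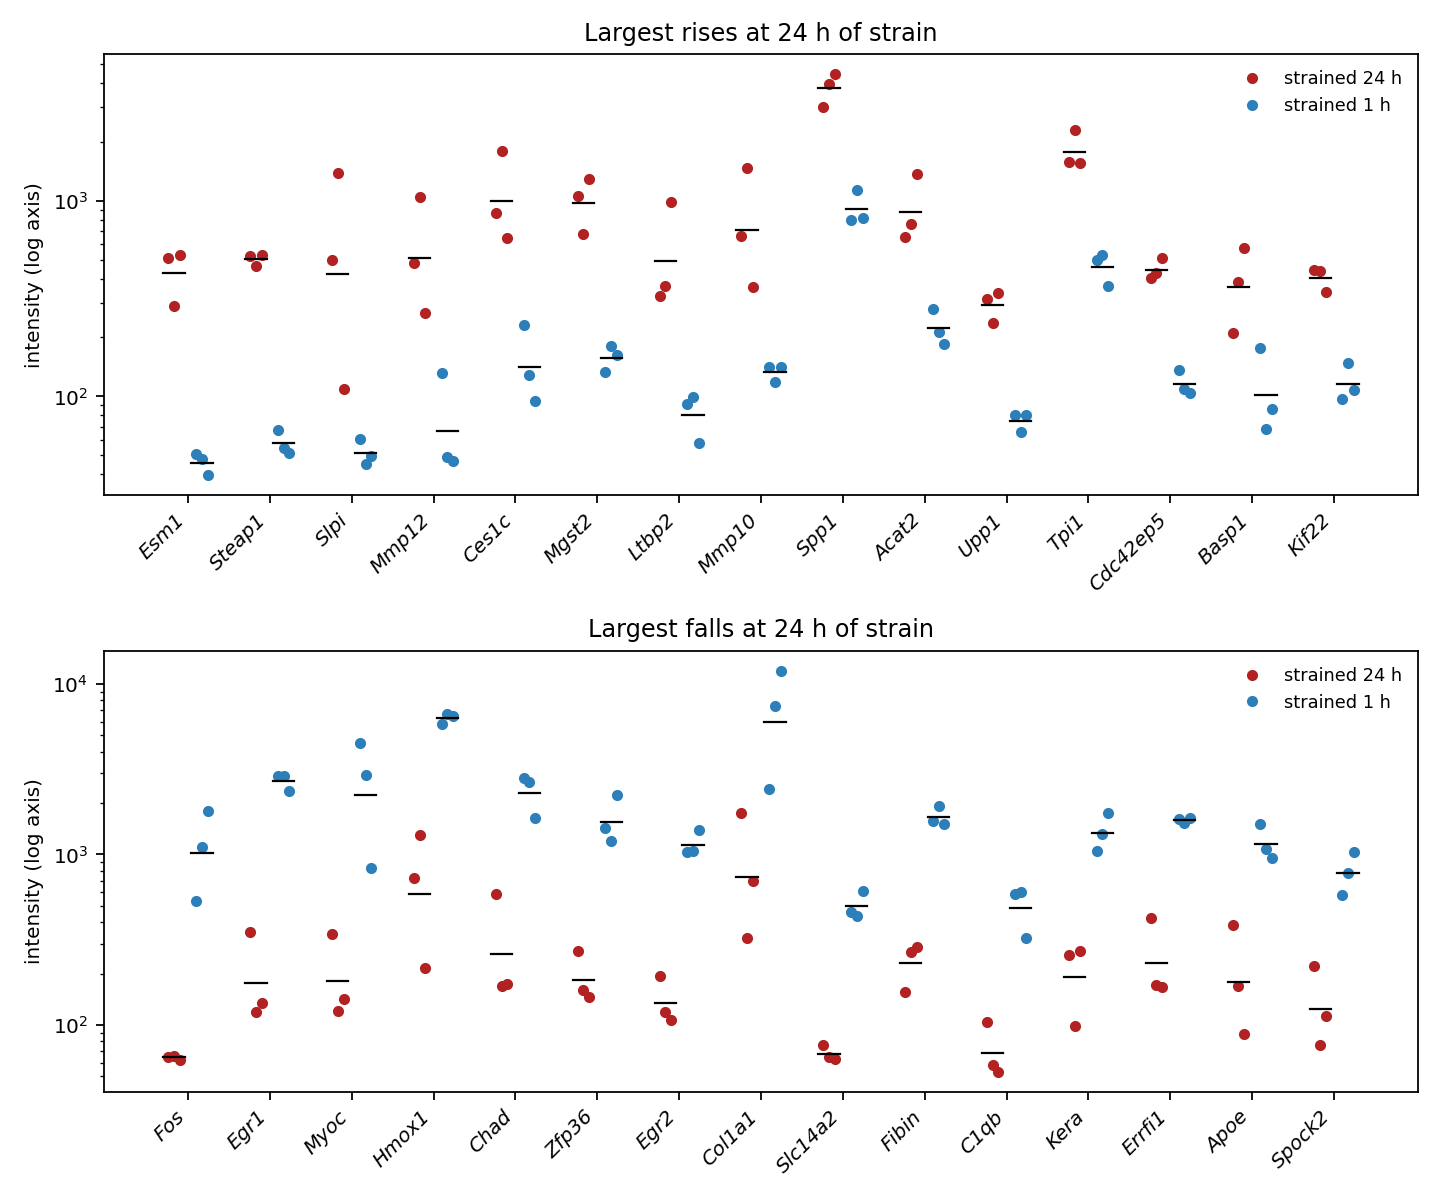
Intensity (log axis) of the 15 named genes with the largest rises and the 15 with the largest falls, with 1 point per array, 3 arrays per group, and a black bar at the mean on the log scale. In each gene the strained 24 h arrays and the strained 1 h arrays do not overlap, which the choice of these genes required; Slpi, Hmox1, Col1a1 and Myoc spread most within a group.

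Most immediate early genes fell. Of 33 kept members (37 on the array, 43 listed), 23 were lower, none was higher and 10 did not pass, where 7.64% of all probes were lower. Their median log2 fold change was -1.24, against 0.01 over all kept probes. With each of the 6 arrays left out in turn, 21 to 25 of them were lower. In bulk samples such as these, fewer cells of a type and less RNA per cell cannot be told apart.

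The zinc finger factor Egr2 read 194, 119 and 107 at 24 h and 1030.2, 1040.4 and 1387 at 1 h (-3.08 ± 0.23, adjusted p = 7.57e-04). Atf3, a stress-induced factor, read 61.5, 61.7 and 56.5 at 24 h and 229.8, 234 and 316 at 1 h (-2.10 ± 0.14, adjusted p = 7.57e-04). In both genes the groups lay far apart, and Atf3 was near the array median on each 24 h array. Zfp36 (tristetraprolin), which marks AU-rich messages for decay, read 270.1, 159.8 and 145 at 24 h against 1428, 1195 and 2220.3 at 1 h (-3.08 ± 0.29, adjusted p = 9.81e-04). Klf6, a Krüppel-like factor, read 588, 491 and 421 at 24 h against 1677, 1557 and 1825 at 1 h (-1.77 ± 0.14, adjusted p = 7.91e-04) and stayed well above the array median at 24 h. Jun, which pairs with Fos, was a smaller change at 119, 112 and 104 at 24 h against 229, 199.7 and 294 at 1 h (-1.10 ± 0.15, adjusted p = 0.00287). Errfi1, a feedback inhibitor of the EGF receptor, fell by 2.79 on the log2 scale, to 426, 172 and 166 at 24 h against 1620.0, 1538 and 1625 at 1 h. Hbegf, a ligand of that receptor, stood at 392, 217 and 271 at 24 h against 984, 854 and 1946 at 1 h (-2.05 ± 0.33, adjusted p = 0.00516).

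Members chosen after their values were seen show the range within the list. Myc stood at -2.08 ± 0.25 and Ier2 at -2.37 ± 0.25, while the phosphatase Dusp1 was still bright at 24 h with 2338, 2515 and 2106, against 3659.5, 3572 and 4037 at 1 h (-0.70 ± 0.11, adjusted p = 0.00452). Egr3 and Dusp2 stood at 0.03 and 0.03 and lay near the array median at both times. Rgs2 (-0.73), Ier3 (-0.51) and Nr4a2 (-1.29) did not pass, with an adjusted p of 0.319, 0.275 and 0.0903.

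The promoters of 5 members that fell are shown because they hold the CArG box, the 10-base motif known to bind serum response factor (SRF). In the 250 bases before the gene's start, on either strand, 5 of the 23 kept members with a RefSeq promoter held it (21.7%), against 1.50% of 27457 rat promoters. The sequences are from RefSeq, build GRCr8, 5′ to 3′ along the gene, with the motif in capitals. Egr1 lies at chr18:26736828-26737077 on the plus strand, Egr2 at chr20:21054442-21054691 on the minus strand, Zfp36 at chr1:92799109-92799358 on the minus strand, Klf6 at chr17:69458479-69458728 on the minus strand and Dusp5 at chr1:262543524-262543773 on the plus strand. A match is a description of the letters and does not show binding in these cells.
Egr1: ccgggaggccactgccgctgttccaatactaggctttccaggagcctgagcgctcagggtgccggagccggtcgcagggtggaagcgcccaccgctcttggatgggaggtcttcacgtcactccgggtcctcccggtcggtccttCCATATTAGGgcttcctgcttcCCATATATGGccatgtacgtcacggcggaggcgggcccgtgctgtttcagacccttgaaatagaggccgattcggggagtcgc
Egr2: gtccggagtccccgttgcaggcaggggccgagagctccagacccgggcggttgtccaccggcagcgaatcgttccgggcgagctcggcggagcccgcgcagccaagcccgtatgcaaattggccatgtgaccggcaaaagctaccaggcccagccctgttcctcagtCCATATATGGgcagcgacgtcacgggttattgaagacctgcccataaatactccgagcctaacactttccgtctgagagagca
Zfp36: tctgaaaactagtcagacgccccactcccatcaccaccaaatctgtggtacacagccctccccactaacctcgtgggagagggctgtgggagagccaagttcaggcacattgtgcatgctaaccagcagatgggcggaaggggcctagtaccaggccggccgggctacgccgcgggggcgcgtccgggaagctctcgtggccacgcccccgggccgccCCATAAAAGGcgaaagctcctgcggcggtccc
Klf6: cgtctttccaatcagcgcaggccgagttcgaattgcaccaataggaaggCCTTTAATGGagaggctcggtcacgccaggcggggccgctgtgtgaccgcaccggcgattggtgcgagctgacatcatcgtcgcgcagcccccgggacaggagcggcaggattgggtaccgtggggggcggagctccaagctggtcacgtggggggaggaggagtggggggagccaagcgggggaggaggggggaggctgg
Dusp5: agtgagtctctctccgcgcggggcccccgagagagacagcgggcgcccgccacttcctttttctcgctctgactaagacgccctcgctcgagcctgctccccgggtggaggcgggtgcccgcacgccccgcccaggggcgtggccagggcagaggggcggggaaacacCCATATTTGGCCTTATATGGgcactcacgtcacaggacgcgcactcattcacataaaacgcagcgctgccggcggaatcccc
Egr1 and Dusp5 hold 2 matches each, and those of Dusp5 adjoin. Dusp5, a nuclear phosphatase of ERK, was dim at both times and fell by 0.67 on the log2 scale, to 84.3, 76.7 and 63.0 at 24 h against 109, 123 and 122 at 1 h.

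Clock and glucocorticoid-responsive genes lay lower beside them: 7 of 16 kept members were lower, none was higher, and the median was -0.81. The repressor Nfil3, which acts on clock genes, read 204, 220.3 and 168 at 24 h and 672, 579.8 and 720.2 at 1 h (-1.74 ± 0.13, adjusted p = 7.91e-04). Klf9, a glucocorticoid target, read 777, 502 and 612 at 24 h against 1688, 2359.6 and 1803 at 1 h (-1.64 ± 0.19), and Bhlhe40, a clock repressor, 198, 131 and 95.9 at 24 h against 433, 529 and 558 at 1 h (-1.89 ± 0.24). All 3 genes lay apart without overlap. Without strained replicate 2 at 24 h, 4 of the 16 were lower. The labels give no clock time for the samples.

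Genes of the unfolded protein response, which matches the folding capacity of the endoplasmic reticulum to secretion, fell in 14 of 30 kept members (34 on the array), and none rose. The median was -0.42. Herpud1, which acts in the removal of misfolded proteins, read 398, 256 and 234 at 24 h and 1432, 1351 and 1313 at 1 h (-2.24 ± 0.19, adjusted p = 8.60e-04). The transcription factors Atf4 and Xbp1 stood at -1.41 ± 0.14 and -1.32 ± 0.15, with adjusted p of 0.00109 and 0.00138. Dnajb9, a co-chaperone, stood at -1.52 ± 0.22. The chaperone Hspa5 (BiP), chosen after its value was seen, was still abundant at 24 h with 3874, 3466 and 2505, against 7045, 5557 and 6456 at 1 h (-0.97 ± 0.17, adjusted p = 0.0084). Its promoter, at chr3:38452766-38453015 on the plus strand, is shown because it holds 4 CCAAT boxes (CCAAT, or ATTGG on the other strand, in capitals). Of the 27 kept members with a RefSeq promoter, 18 held at least 1 (66.7%), against 34.3% of all rat promoters.
Hspa5: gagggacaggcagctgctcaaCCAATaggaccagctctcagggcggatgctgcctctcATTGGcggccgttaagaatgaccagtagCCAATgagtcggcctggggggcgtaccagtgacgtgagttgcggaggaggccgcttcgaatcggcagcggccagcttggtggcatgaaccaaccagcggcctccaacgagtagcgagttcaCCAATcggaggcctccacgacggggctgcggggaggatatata

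Genes for collagen chains and for the enzymes that process them were more often lower than higher at 24 h. Of 27 kept members of the list of fibrillar collagens and their processing enzymes, 14 were lower, 3 were higher and 10 did not pass, and the median was -0.66. Col1a1, a chain of type I collagen, read 1760.2, 323 and 700.1 at 24 h and 2413, 7469 and 11930.4 at 1 h. The groups did not overlap, but the highest 24 h array, replicate 1, and the lowest 1 h array, also replicate 1, lay close. The log2 fold change was -3.03 ± 0.70 (adjusted p = 0.0223), and the test was not passed without replicate 2 or 3 of either time (adjusted p = 0.0603 to 0.0769). Col1a2, the other chain of type I collagen, read 11930.4, 6456 and 8925 at 24 h against 13080.1, 14804 and 14804 at 1 h. It was at the array's maximum, the shared value of the brightest probe, on 2 of the 3 arrays at 1 h. The size of its fall, 0.69 ± 0.20 on the log2 scale, is therefore uncertain (adjusted p = 0.0547, not past the test). Col3a1 read 125, 132 and 282 at 24 h against 261, 538 and 875 at 1 h (-1.57 ± 0.46, adjusted p = 0.0499), and lost its call in 4 of the 6 fits without an array (adjusted p up to 0.168).

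The enzymes that modify or trim collagen moved both ways. P3h2, a prolyl 3-hydroxylase, read 168, 121 and 148 at 24 h against 536, 619.7 and 696 at 1 h (-2.09 ± 0.15, adjusted p = 7.57e-04). Pcolce, which speeds the removal of the procollagen C-terminal propeptide, read 729, 433 and 598 at 24 h against 1419, 1612 and 2843 at 1 h (-1.70 ± 0.28, adjusted p = 0.00602). Loxl2, a lysyl oxidase that crosslinks collagen, and P4ha1, a subunit of prolyl 4-hydroxylase, stood at -1.28 ± 0.21 and -1.25 ± 0.21. The 3 that rose were Plod3 (0.70 ± 0.13), Plod2 (0.83 ± 0.21) and P4ha3 (0.48 ± 0.12), named after their values were seen. Plod2 and Plod3 are lysyl hydroxylases, and Plod2 and P4ha3 each lost the call in 4 of the 6 fits without an array. Lox, the main lysyl oxidase, was bright at both times with 5245, 5859 and 5355 at 24 h against 5438, 4611 and 6061 at 1 h (0.04 ± 0.12, adjusted p = 0.882). For the list, the count of falls was 6 without replicate 2 of the 24 h group and 9 without replicate 2 of the 1 h group.

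Of the other collagens, 4 of 11 kept members were lower and none was higher, at a median of -0.17. Col15a1, a basement membrane zone collagen, read 170.1, 87.1 and 88.5 at 24 h against 589, 471 and 732 at 1 h (-2.42 ± 0.27, adjusted p = 0.00144). Col6a1, of the microfibrils around tendon cells, read 1172, 697 and 1274 at 24 h against 2137, 2567 and 3585 at 1 h (-1.41 ± 0.26, adjusted p = 0.00944). In both the groups lay apart. Col14a1 (-1.17) lost its call without 24 h replicate 2 (adjusted p = 0.0527), and Col4a1 (-0.86) in 3 of the 6 such fits (up to 0.0718).

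Small leucine-rich proteoglycans, which bind collagen and set fibril width, were lower in 7 of 10 kept members, and all 10 had a negative value. The median was -1.11. Fmod read 2466, 1612 and 2162 at 24 h and 5746, 6061 and 7284 at 1 h (-1.63 ± 0.17, adjusted p = 0.00119). Ogn (osteoglycin) read 150.3, 93.6 and 96.5 at 24 h against 407, 662 and 778 at 1 h (-2.42 ± 0.27, adjusted p = 0.00136). Kera (keratocan) read 257, 98.8 and 271 at 24 h against 1042, 1325 and 1757 at 1 h (-2.82 ± 0.38, adjusted p = 0.00274). The 3 genes held no overlap between the times. Chad (chondroadherin), which binds collagen and cells, read 588, 169 and 174 at 24 h against 2820.2, 2644 and 1631 at 1 h (-3.15 ± 0.46, adjusted p = 0.00378), with replicate 1 highest at 24 h. Dcn (decorin), the most abundant of them, changed less, with 8356, 7553 and 6879 at 24 h against 10810.5, 11930.4 and 10810.5 at 1 h (-0.56 ± 0.11, adjusted p = 0.0108). Its 1 h values lie near the maximum of 14804, where all arrays share the same few values, so the size of its fall is uncertain.

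Tnmd, the membrane glycoprotein that marks mature tenocytes, read 2057, 982 and 1603 at 24 h and 3014, 3326 and 5803 at 1 h. It was 2.62-fold lower (-1.39 ± 0.32, adjusted p = 0.0208), and without strained replicate 2 at 24 h its adjusted p was 0.0642. Thbs4, also typical of tendon, had close values at both times, 5803, 4611 and 5498 at 24 h against 5305, 5685 and 6422 at 1 h (-0.13 ± 0.12, adjusted p = 0.556). Of the 10 tendon cell markers on the array, which include Egr1 and Egr2, 7 were lower and none was higher. All of the 7 but Tnmd were described above with the immediate early genes, collagens or proteoglycans, so this count is not separate from those lists. Their summed intensity ran from 21930 to 33223 at 24 h and from 45366 to 62637 at 1 h. Of 8 kept cartilage markers 4 were lower, or 2 with any 1 of the 24 h arrays or 1 h replicate 2 left out, and their sum, led by Chad, ran from 743 to 1173 at 24 h and from 2738 to 3532 at 1 h. The part of a change in cell types in the matrix results was not tested.

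Matrix glycoproteins and proteoglycans had 12 falls, 2 rises and 19 members that did not pass among 33 kept, at a median of -0.32. The falls were 36.4% of the list, against 7.64% of all kept probes, and the rises 6.06%, against 10.03%. The 2 that rose were among the largest rises of the comparison. Esm1 (endocan), a secreted proteoglycan, read 511, 291 and 529.8 at 24 h and 50.5, 47.6 and 39.6 at 1 h, 9.37-fold higher (3.23 ± 0.23, adjusted p = 7.57e-04). Its 1 h arrays lay below the array median. Spp1 (osteopontin), which binds integrins and mineral, read 3031, 3961 and 4434 at 24 h against 798, 1138 and 813 at 1 h (2.06 ± 0.19, adjusted p = 9.19e-04). Among the falls, Mfap4, a microfibril-associated protein, stood at -1.19 ± 0.11 and Lamb2, a laminin chain, at -1.57 ± 0.17, with 403, 262 and 256 at 24 h against 876, 901 and 901 at 1 h. Fibronectin (Fn1), chosen after its value was seen, read 4338, 3789 and 3740.3 at 24 h against 3979, 4434 and 3438 at 1 h (0.01 ± 0.12, adjusted p = 0.982).

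Of 10 kept elastic fibre genes, 4 were lower (40%, against 7.64% of all kept probes) and 1 was higher (10%, against 10.03%). Their median was -0.55. Ltbp4, which tethers latent TGF-beta to the matrix, read 849, 637 and 699 at 24 h against 2351, 2527 and 1904 at 1 h (-1.63 ± 0.15, adjusted p = 9.53e-04). Mfap5, a microfibril component, read 429.9, 141 and 150.0 at 24 h against 1376, 1359 and 1195 at 1 h (-2.65 ± 0.38, adjusted p = 0.00354), and Fbln1 stood at -1.64 ± 0.24. Fbln5, an elastin-binding fibulin, stood at -0.83 ± 0.17 and lost its call without 24 h replicate 2 (adjusted p = 0.0628). The gene that rose, Emilin1 (0.77, adjusted p = 0.0417), was named after its value was seen and lost its call in 5 of the 6 fits without an array. Ltbp2, a relative of Ltbp4 that is in the TGF-beta list, rose, with 327, 366 and 989 at 24 h against 90.9, 98.9 and 57.9 at 1 h (2.61 ± 0.41, adjusted p = 0.00477), with replicate 3 far above the other 24 h arrays.

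Of 30 kept matrix proteinases, 5 were higher, 6 lower and 19 not past the test, at a median of -0.05. The calls were 16.7% and 20% of the list, against 10.03% and 7.64% of all kept probes. The cathepsins Ctss and Ctsk, lysosomal cysteine proteinases, fell. Ctss read 147, 101 and 91.8 at 24 h and 773, 625 and 401 at 1 h (-2.38 ± 0.26, adjusted p = 0.00133), and Ctsk, which cleaves type I collagen, 970.5, 403 and 309.9 at 24 h against 2338, 2548 and 2373 at 1 h (-2.29 ± 0.36, adjusted p = 0.00521). Fap, a fibroblast surface peptidase, and Mmp23 stood at -1.45 ± 0.16 and -0.92 ± 0.16. In all 4 the times did not overlap.

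The proteinases that rose included secreted metalloproteinases. Mmp10 (stromelysin 2) read 657, 1473 and 362 at 24 h and 142, 118 and 141 at 1 h (2.41 ± 0.43, adjusted p = 0.00821). Mmp12 (macrophage elastase) read 479.6, 1040.4 and 266 at 24 h against 131, 49.1 and 46.6 at 1 h (2.93 ± 0.54, adjusted p = 0.00912). In both, replicate 2 was the highest 24 h array and replicate 3 the lowest. Adamts5, an aggrecanase, read 146, 159 and 144 at 24 h against 79.8, 98.8 and 61.5 at 1 h (0.93 ± 0.17, adjusted p = 0.00858). The collagenase Mmp13 was dim, with 90.8, 66.4 and 69.8 at 24 h against 52.1, 50.1 and 54.2 at 1 h (0.52 ± 0.13, adjusted p = 0.0305), and lost its call in 5 of the 6 fits without an array (adjusted p up to 0.0806). Mmp3 (stromelysin 1) was among the brightest genes at both times, 9511, 11930.4 and 8179 at 24 h against 11066, 7155 and 8675 at 1 h (0.14 ± 0.19, adjusted p = 0.690). Mmp14 (-0.15 ± 0.20) and Adamts1 (0.43 ± 0.28) did not pass, at adjusted p of 0.691 and 0.365. The count of rises in the list was 3 without strained replicate 1 or 3 at 24 h or replicate 2 at 1 h.

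Of 14 kept proteinase inhibitors, 3 were higher (21.4%), 6 lower (42.9%) and 5 not past the test, at a median of -0.64. Over all kept probes 10.03% were higher and 7.64% lower. Timp1, an inhibitor of metalloproteinases, sat at the array's maximum on all 3 arrays at 24 h, with 14804 on each, against 10294, 8675 and 7962 at 1 h. It was 1.66-fold higher (adjusted p = 0.00502). The maximum is the same on every array, as quantile normalization leaves it, and goes to the brightest probe. The true size of the change is therefore uncertain in either direction, and the equal 24 h values hide the spread of that group from the test. Timp3, which is held in the matrix, was dim and fell to 53.0, 62.5 and 67.2 at 24 h against 100.1, 107 and 90.7 at 1 h (-0.71 ± 0.12, adjusted p = 0.00712). The cysteine proteinase inhibitor Cst3 (cystatin C) read 4256, 2686 and 2382 at 24 h against 7284, 8925 and 8925 at 1 h (-1.47 ± 0.21, adjusted p = 0.00354), and Spint2 and Serpinf1 stood at -1.20 ± 0.13 and -1.34 ± 0.23. Slpi, an inhibitor of neutrophil elastase, read 497, 1392 and 109 at 24 h against 60.6, 45.2 and 49.8 at 1 h (3.04 ± 0.77, adjusted p = 0.0304). Its 24 h arrays spread widely, with replicate 2 highest and replicate 3 lowest, and the call was lost in 5 of the 6 fits without an array (adjusted p = 0.0604 to 0.0839). The list held 1 rise without strained replicate 1 at 24 h or replicate 2 or 3 at 1 h.

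**Figure D2:**
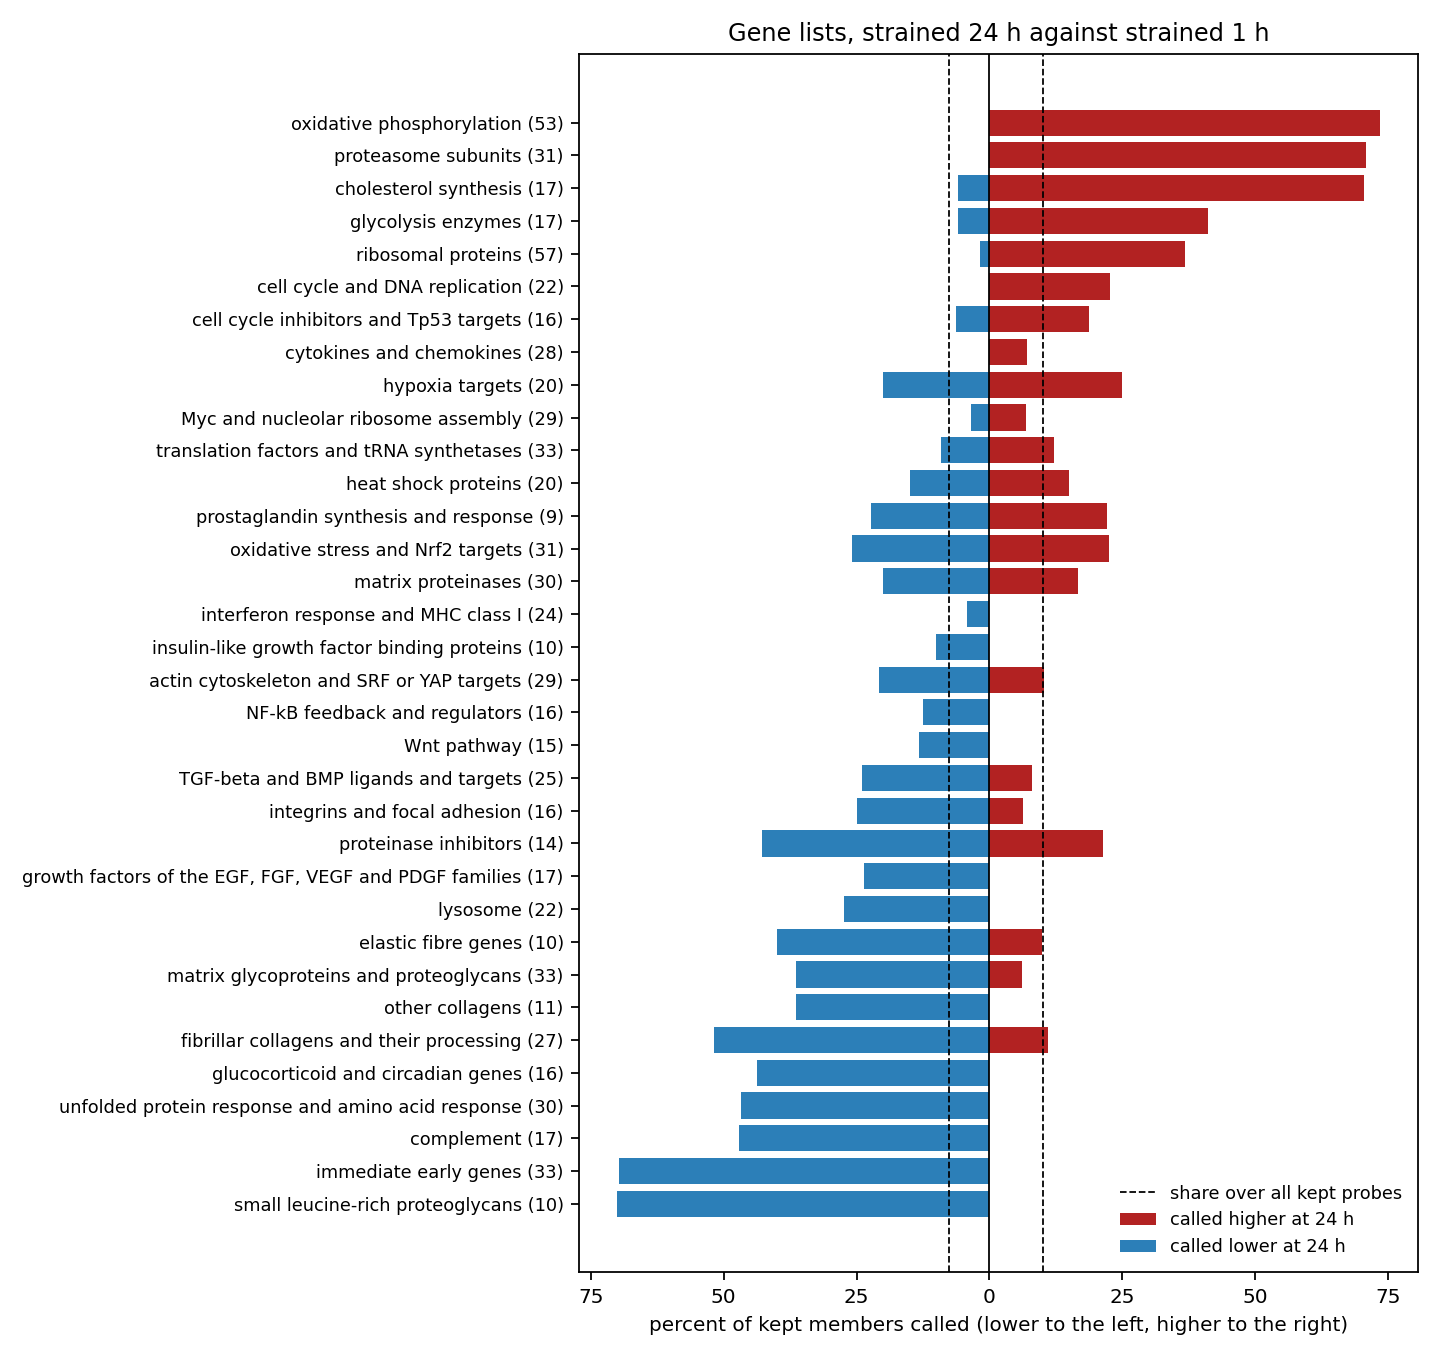
Percent of the kept members of 34 gene lists called higher (right) or lower (left) at 24 h against 1 h of strain, with the number of kept members in brackets and dashed lines at the shares over all kept probes, 10.03% higher and 7.64% lower. Oxidative phosphorylation, proteasome and cholesterol synthesis reach furthest to the right, and small leucine-rich proteoglycans and immediate early genes furthest to the left.

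Energy and protein turnover genes rose in many members by small amounts. Of 53 kept genes of oxidative phosphorylation (55 on the array), 39 were higher and none lower, where 10.03% of all probes were higher, and the median was 0.55. Ndufb7, a subunit of complex I, read 567, 576 and 571 at 24 h and 298, 348 and 349 at 1 h (0.79 ± 0.10, adjusted p = 0.00222). Ndufs1, the largest complex I subunit, read 297, 338 and 359 at 24 h against 155, 156 and 193 at 1 h (0.98 ± 0.13, adjusted p = 0.00226). Cox7b, of cytochrome c oxidase, stood at 0.80 ± 0.10, with arrays of 1834 to 1904 at 24 h and 1010 to 1197 at 1 h. Atp5mc1, a subunit of the c-ring of ATP synthase, stood at 0.81 ± 0.12. The count was 27 with cyclic loess and 21 without strained replicate 2 at 24 h, with medians of 0.43 and 0.57. It was 23 without strained replicate 3 at 24 h.

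The promoter of Atp5mc2, a further c-ring gene chosen after its value was seen, is shown because it holds the motif of the nuclear respiratory factor NRF1 (GCGCA, any base, then GCGC, on either strand). Atp5mc2 read 820.3, 937 and 776 at 24 h and 316, 474 and 478 at 1 h (1.02 ± 0.17, adjusted p = 0.0069). The motif stood in the 250 bases of 10 of 47 kept members with a RefSeq promoter (21.3%), against 4.17% of all rat promoters and 8.81% of the 6505 kept genes with one. The region is chr7:135678219-135678468 on the minus strand, with the motif in capitals.
Atp5mc2: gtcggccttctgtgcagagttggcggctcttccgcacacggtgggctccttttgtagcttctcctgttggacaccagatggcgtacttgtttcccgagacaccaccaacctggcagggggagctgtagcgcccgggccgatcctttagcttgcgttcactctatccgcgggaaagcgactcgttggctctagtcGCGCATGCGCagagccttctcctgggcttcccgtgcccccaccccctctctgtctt

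Proteasome subunits, which form the main cytosolic machine of protein breakdown, were higher in 22 of 31 kept members and lower in none, at a median of 0.60, and all 31 values were positive. Psmb1 read 2289, 2289 and 2023 at 24 h and 1342, 1293 and 1289 at 1 h (0.75 ± 0.10, adjusted p = 0.00227). Psmb6 stood at 0.75 ± 0.10, Psma7 at 0.81 ± 0.11 and Psmd2, of the regulatory cap, at 0.72 ± 0.10. The core particle and the cap both held members that rose. The count was 16 with cyclic loess and 14 without strained replicate 3 at 24 h, with medians of 0.48 and 0.62.

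Ribosomal protein genes had 21 higher and 1 lower among 57 kept members, at a median of 0.30. Rpl31 read 188, 200.3 and 215 at 24 h and 83.7, 91.3 and 96.1 at 1 h (1.15 ± 0.10, adjusted p = 8.89e-04), and Rps21 read 3718, 3511 and 4208 at 24 h against 2189.8, 2316 and 1995 at 1 h (0.81 ± 0.11). Rpl7 and Rpl5 stood at 0.76 ± 0.10 and 1.04 ± 0.16. Many ribosomal genes have near-identical pseudogenes, which a probe may also detect. The count was 14 with cyclic loess, at a median of 0.15, and 12 without strained replicate 2 at 24 h. The medians of the ribosomal, proteasome and oxidative phosphorylation lists stayed positive under each setting tried.

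Cholesterol synthesis genes were higher in 12 of 17 kept members and lower in 1, at a median of 0.99, the highest of the 49 lists. Fdft1 (squalene synthase) read 190.3, 231 and 259.8 at 24 h and 72.1, 76.2 and 76.3 at 1 h (1.59 ± 0.13, adjusted p = 7.92e-04). Fdps, which makes farnesyl diphosphate, read 363, 414 and 579 at 24 h against 137, 140.4 and 116 at 1 h (1.76 ± 0.18, adjusted p = 0.00109). Msmo1, a sterol methyl oxidase, read 487, 493 and 560.2 at 24 h against 153, 218 and 177 at 1 h (1.50 ± 0.14, adjusted p = 0.00109). Idi1, which isomerizes the isoprene unit, stood at 1.32 ± 0.15. In these 4 genes each 24 h array stood clear of the 1 h arrays. Acat2, the thiolase of the first step, which is not in the list, read 652, 756 and 1376 at 24 h against 280.1, 214 and 185 at 1 h (1.98 ± 0.28, adjusted p = 0.00323). The member that fell was Insig2 (-0.60 ± 0.11, adjusted p = 0.0104), which holds back the activation of the sterol factor SREBP and was named after its value was seen. The list's count stayed between 11 and 13 over the settings tried.

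Promoters of 2 of these enzymes are shown for their CCAAT boxes, in capitals, which 11 of 13 kept members with a RefSeq promoter held (84.6%), against 34.3% of all rat promoters. The core of the sterol regulatory element (TCACNCCAC, on either strand) was in none of the 13 windows of 250 bases, which says only that these letters are not there. Msmo1 lies at chr16:29746863-29747112 on the plus strand and Fdps at chr2:176804817-176805066 on the minus strand.
Msmo1: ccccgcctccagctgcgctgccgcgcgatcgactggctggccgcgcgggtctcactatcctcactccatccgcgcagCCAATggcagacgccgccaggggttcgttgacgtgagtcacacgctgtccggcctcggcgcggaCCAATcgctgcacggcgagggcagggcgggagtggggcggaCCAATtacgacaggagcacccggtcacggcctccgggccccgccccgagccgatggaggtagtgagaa
Fdps: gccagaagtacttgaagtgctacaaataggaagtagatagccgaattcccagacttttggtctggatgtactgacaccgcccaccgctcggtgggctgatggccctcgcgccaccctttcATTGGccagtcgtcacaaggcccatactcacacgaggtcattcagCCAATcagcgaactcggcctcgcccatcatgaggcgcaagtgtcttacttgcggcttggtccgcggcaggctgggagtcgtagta

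Glycolysis enzymes were higher in 7 of 17 kept members and lower in 1, at a median of 0.61. Tpi1 (triosephosphate isomerase) read 1577, 2309 and 1561 at 24 h and 497, 527 and 367 at 1 h (1.96 ± 0.19, adjusted p = 0.00109). Gapdh, often used as a reference gene, read 2713, 3031 and 3087 at 24 h against 1329.8, 1342 and 1058 at 1 h (1.25 ± 0.12, adjusted p = 0.00109). Ldha (lactate dehydrogenase) and Pgk1 stood at 1.26 ± 0.12 and 1.21 ± 0.12. The fall was that of Hk2, an inducible hexokinase, at 115, 102 and 87.2 at 24 h against 202, 182 and 159 at 1 h (-0.84 ± 0.14), named after its value was seen.

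**Figure D3:**
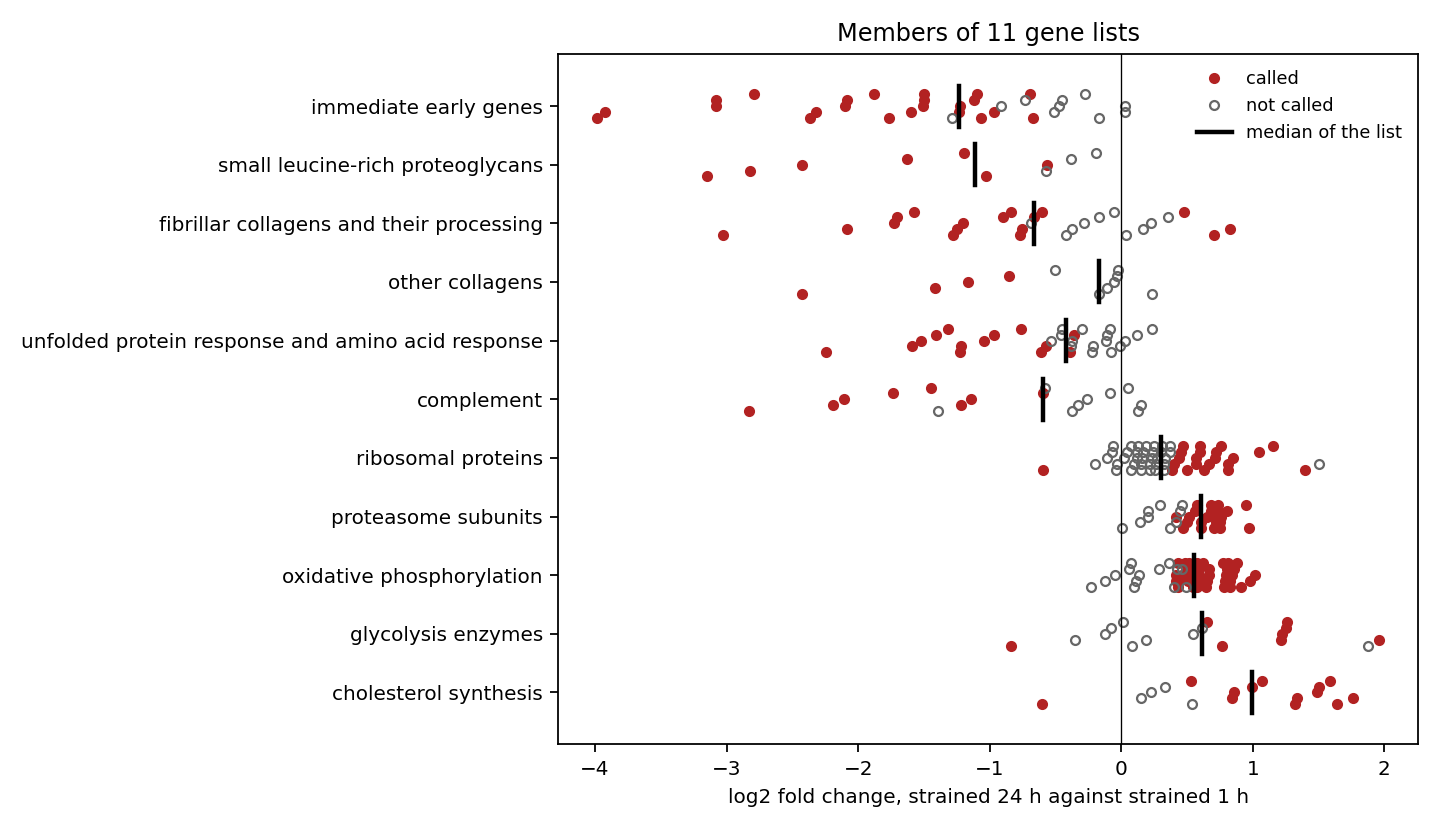
Log2 fold change of each kept member (1 point per gene) of 11 lists, strained 24 h against strained 1 h, filled where the gene was called and open where not, with a black bar at the list's median. The medians run from -1.24 for immediate early genes to 0.99 for cholesterol synthesis, and rises of the proteasome and of oxidative phosphorylation stay near or below 1.

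Genes of the oxidative stress response moved both ways, with 7 of 31 kept members higher and 8 lower. Hmox1 (heme oxygenase 1), a stress-induced enzyme, read 730.5, 1291 and 216 at 24 h and 5803, 6668 and 6523 at 1 h (-3.43 ± 0.55, adjusted p = 0.00531). Its 1 h arrays lay close together and its 24 h arrays spread widely below them. Gclc and Gclm, the subunits of the enzyme that limits glutathione synthesis, stood at -1.82 ± 0.16 and -1.25 ± 0.11, with Gclc at 683, 449.6 and 542 at 24 h against 2048, 1787 and 2007 at 1 h. The peroxidase Gpx1 stood at -1.22 ± 0.13. Prdx3, a mitochondrial peroxiredoxin, rose, with 538, 562 and 584 at 24 h against 232, 291 and 247 at 1 h (1.14 ± 0.11, adjusted p = 0.00109). The metallothionein Mt1 was bright and did not pass, at 6123, 4180.2 and 2635 at 24 h against 6262, 7787 and 3605 at 1 h (-0.46 ± 0.35, adjusted p = 0.453).

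Complement genes were lower in 8 of 17 kept members and higher in none, at a median of -0.59. C1qb, a chain of the C1q recognition molecule made mainly by macrophages, read 103, 58.0 and 53.1 at 24 h and 586, 604 and 324 at 1 h (-2.83 ± 0.31, adjusted p = 0.00133). C1qc read 54.3, 43.5 and 47.3 at 24 h against 261, 226 and 152 at 1 h (-2.11 ± 0.20, adjusted p = 0.00101), so that both were near the array median on most 24 h arrays. Cd59b, an inhibitor of the membrane attack complex, and Cfd (factor D) stood at -2.19 ± 0.23 and -1.74 ± 0.23. Apoe, a lipid carrier that macrophages also make, read 387, 168 and 88.6 at 24 h against 1507, 1072 and 952 at 1 h (-2.69 ± 0.47, adjusted p = 0.00744). Without strained replicate 2 at 24 h, 5 of the 17 complement genes were lower.

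Of 24 kept macrophage and leucocyte markers, 7 were lower and 1 was higher, at a median of -0.28, and their summed intensity over 31 genes on the array ran from 2676 to 3284 at 24 h and from 3313 to 5240 at 1 h. Aif1, a macrophage protein, read 96.7, 59.8 and 71.0 at 24 h against 402, 364 and 190.5 at 1 h (-2.03 ± 0.29, adjusted p = 0.00354), and Lyve1 stood at -1.38 ± 0.25. The marker that rose was Fcgr2b (0.46, adjusted p = 0.0174), named after its value was seen, and it lost its call in 4 of the 6 fits without an array. Ptprc, Spi1 and Cd52 lay near the array median at both times, while Cd14 and Fcer1g were bright at both, and the part of these cells in the complement falls was not tested. Without strained replicate 2 or 3 at 24 h, 4 of the markers were lower, and without strained replicate 3 at 1 h 10 were.

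Cytokines and chemokines spread widely within the groups. Of 28 kept members, 2 were higher (7.14%, against 10.03% of all kept probes) and none was lower. Without strained replicate 1 at 1 h, 6 were higher and 1 lower. The fits without strained replicate 1 or 3 at 24 h or replicate 2 at 1 h left 0 higher. Il6 read 933, 484 and 153 at 24 h and 1231, 598 and 277 at 1 h (-0.52 ± 0.70, adjusted p = 0.698), with the arrays of both times interleaved. Cxcl16 read 1055, 952 and 1289 at 24 h against 665, 392 and 155 at 1 h (1.67 ± 0.45, adjusted p = 0.0397) and lost its call in 4 of the 6 fits without an array, as Cxcl6 (0.46) did in 3. Cxcl10 and Il18 did not pass, at -1.72 ± 0.50 and -0.53 ± 0.16. Ptgs2, the inducible cyclooxygenase, read 3220.1, 2373 and 2359.6 at 24 h against 4547, 2505 and 5391 at 1 h (-0.59 ± 0.27, adjusted p = 0.198).

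The remaining genes with the largest changes belong to no single group. Steap1, a membrane metalloreductase, read 519, 465 and 526 at 24 h and 67.5, 54.5 and 51.6 at 1 h, 8.75-fold higher (3.13 ± 0.13), with the smallest adjusted p of the comparison, 9.05e-05. Mgst2, a glutathione transferase of the endoplasmic reticulum, read 1060.0, 676 and 1295 at 24 h against 134, 181 and 163 at 1 h (2.63 ± 0.23), and Ces1c, a carboxylesterase, 869.7, 1787 and 644 at 24 h against 231, 128 and 94.3 at 1 h (2.83 ± 0.42). In all 3 genes each 24 h array stood clear of the 1 h arrays, as the choice of the largest changes required. Upp1 (uridine phosphorylase), Cdc42ep5, an effector of the GTPase Cdc42, and Kif22, a kinesin, stood at 1.96 ± 0.16, 1.95 ± 0.14 and 1.81 ± 0.18. Basp1, a membrane-bound signalling protein, stood at 1.83 ± 0.42 and lost its call in 4 of the 6 fits without an array (adjusted p up to 0.0827).

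Among the remaining falls, Myoc (myocilin), a secreted glycoprotein, read 341, 121 and 141 at 24 h and 4508, 2923 and 833 at 1 h, 12.4-fold lower (-3.63 ± 0.62, adjusted p = 0.00693). Its 1 h replicate 3 lay well below the other 1 h arrays, and still above each 24 h array. Slc14a2, a urea transporter, read 76.7, 64.7 and 63.1 at 24 h against 462, 434 and 608 at 1 h (-2.87 ± 0.15, adjusted p = 3.41e-04), and its second, dimmer probe gave -1.17. Fibin, a secreted factor of limb development, read 157, 268 and 288 at 24 h against 1561, 1934 and 1498 at 1 h (-2.85 ± 0.23), and Spock2 (testican 2), a proteoglycan, 222, 76.0 and 113 at 24 h against 581, 782 and 1038 at 1 h (-2.65 ± 0.37). Of the 30 genes with the largest changes, 27 were called in every fit that tested them, the exceptions being Slpi, Basp1 and Col1a1.

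Of 22 kept cell cycle and DNA replication genes, 5 were higher (22.7%, where 10.03% of all kept probes were) and none lower, and 19 of the 22 had a positive value, at a median of 0.38. Cdk4, which drives entry into S phase, read 334, 352 and 429.9 at 24 h and 168, 223 and 201 at 1 h (0.91 ± 0.14, adjusted p = 0.0049), and its partner Ccnd1 (cyclin D1) 748, 790.1 and 1853 at 24 h against 362, 244 and 328 at 1 h (1.75 ± 0.34, adjusted p = 0.0106). Mcm2 and Mcm6, of the replicative helicase, stood at 1.18 ± 0.24 and 1.45 ± 0.35, with replicate 3 highest at 24 h in both. The list's count was 3 without strained replicate 1 or 3 at 1 h, and Mcm6 lost its call in 4 of the 6 fits without an array (adjusted p up to 0.0682).

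Of 25 kept TGF-beta and BMP genes, 2 were higher (8%, against 10.03% of all kept probes) and 6 lower (24%, against 7.64%). Their median was -0.31. The ligand Tgfb3 read 92.0, 75.9 and 88.4 at 24 h against 202, 251 and 309 at 1 h (-1.55 ± 0.16, adjusted p = 0.00119), and the inhibitors Bambi and Chrd (chordin) stood at -0.84 ± 0.10 and -0.91 ± 0.12. Beside Ltbp2, the gene that rose was Id1 (1.02 ± 0.21), named after its value was seen, which lost its call without 24 h replicate 2 (adjusted p = 0.0586). Actin and SRF or YAP target genes had 3 rises and 6 falls among 29 kept (10.3% and 20.7%, against 10.03% and 7.64% of all kept probes). Csrp1 and Ccn1 fell, at -1.02 ± 0.14 and -2.32 ± 0.43. Ezr (ezrin) at -0.70 ± 0.13 and Tpm3 at 0.45 ± 0.09 lost their calls without 24 h replicate 2 (adjusted p = 0.0510 and 0.0513), and that fit left 0 rises and 3 falls. A second probe of Tpm3 gave 0.16.

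The change with time was mostly of the same sign in unstrained fascicles, and 9 probes passed the test of the difference without a block. In unstrained fascicles limma called 1803 probes (16.02%), 1013 higher (8.998%) and 790 lower (7.02%) at 24 h against 1 h. Of the 1989 probes called under strain, 1099 were also called there (55.3% of the strained calls and 61.0% of the unstrained calls), 1095 with the same sign. Of the 1989, 1916 had the same sign in unstrained fascicles (96.3%), against 71.6% of all kept probes. Of the 15 largest rises under strain, Spp1, Basp1 and Kif22 were not called without it. They stood at 0.76, 0.34 and -0.16 there (limma adjusted p = 0.355, 0.706 and 0.862). The other rises were called higher, and the 15 largest falls were all called lower. Without a block the difference of time effects was not called for Spp1, Basp1 or Kif22. With replicate number as a block at 1 h alone it was called for Kif22 (adjusted p = 0.0123). Kif22 had 1 high unstrained array at 1 h (606, against 159 and 248). Blocking at 24 h as well, Kif22 (limma adjusted p = 0.00254), Esm1 (0.00494), Slpi (4.32e-04) and Mmp12 (5.79e-04) were called. Esm1 rose less without strain (1.64, against 3.23 under it). Slpi and Mmp12 rose more (6.03 against 3.04 and 4.58 against 2.93). Over the 11258 probes the changes correlated at a Pearson's r of 0.796. The 2 comparisons share no sample, but same-numbered samples at 1 h deviated together. Probes are not independent replicates.

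**Figure D4:**
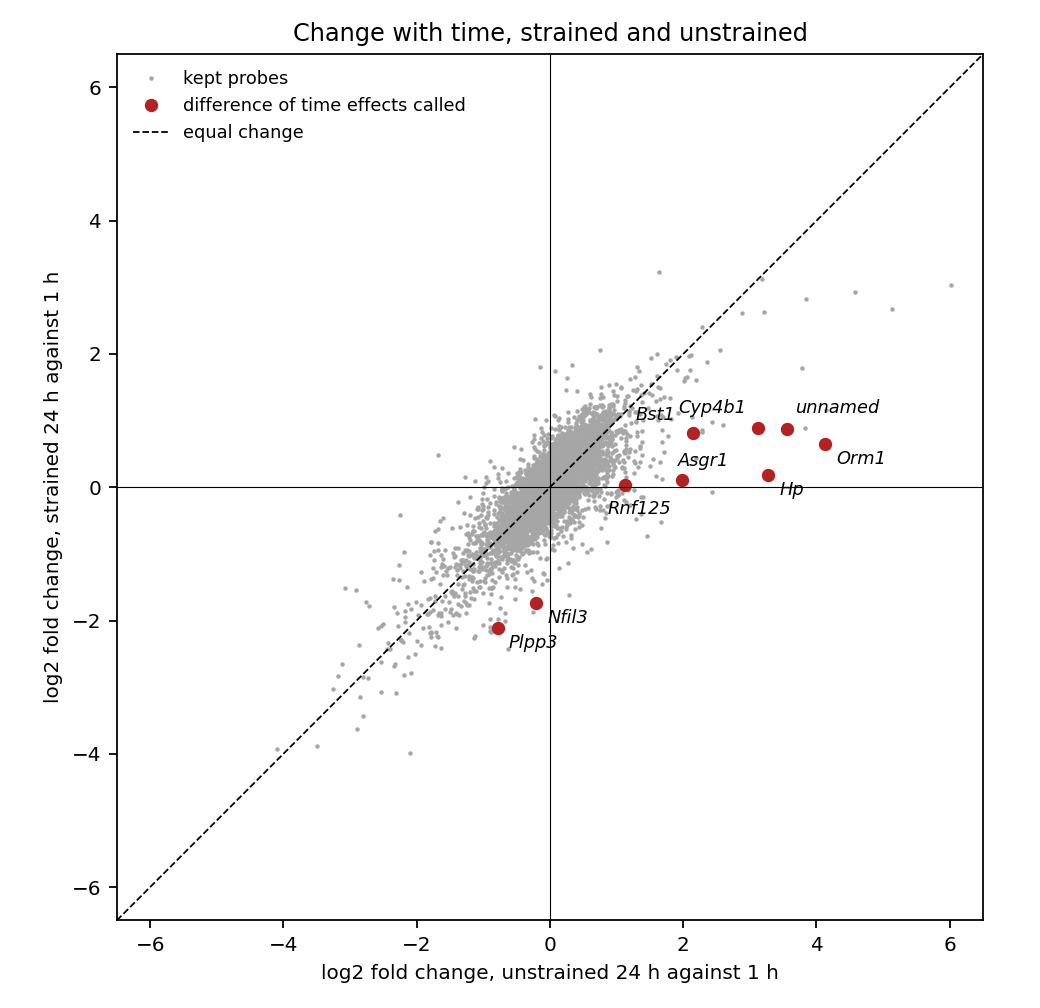
Log2 fold change of 24 h against 1 h for each of 11258 kept probes, in strained fascicles (vertical axis) and in unstrained fascicles (horizontal axis), with a dashed line where both are equal. Red points mark the 9 probes whose 2 changes differed by the test of the difference without a block, and all 9 lie below the line.

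Immediate early genes fell in unstrained fascicles too, with 21 lower and 3 higher of 33, at a median of -0.89. Egr1 fell by 4.10 on the log2 scale there, and Fos by 2.09. Their difference of time effects was 0.17 ± 0.58 (adjusted p = 0.970) for Egr1 and -1.89 ± 0.56 (adjusted p = 0.296) for Fos, neither past the test without a block. With replicate number as a block at 1 h alone, where strained and unstrained samples of one number paired, Fos passed (adjusted p = 0.000498) and Egr1 did not (0.943). The lists that rose under strain also had positive medians without it, 0.40 for oxidative phosphorylation (23 of 53 higher), 0.31 for the proteasome (11 of 31) and 1.13 for cholesterol synthesis (14 of 17). Small leucine-rich proteoglycans had a median of -1.17, with 6 of 10 lower. Whether these lists differed between the states was not tested as lists. Without a block none of their members was called for the difference. With the block at 1 h alone, 4 of 33 immediate early genes were called, all lower in the strained minus unstrained effect, and no member of the other 4 lists was. Blocking at 24 h as well, 7 of the 33 were called, all lower, and 1 small leucine-rich proteoglycan, higher.

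The difference of the time effects, strained minus unstrained, was called for 9 probes over all 12 arrays (0.0799% of 11258), all 9 lower, while 917 had an unadjusted p under 0.05. With replicate number as a block at 1 h alone, a fit chosen after seeing the data, it was called for 80, of which 18 were higher and 62 lower. Blocking at 24 h as well, it was called for 184, of which 54 were higher and 130 lower. At 24 h same-numbered deviations correlated less, at 0.0387, 0.309 and 0.388. Each strained 24 h array still matched the unstrained one of its number best. Acute-phase genes, which the liver makes in inflammation, led. Orm1 (orosomucoid) read 105, 95.8 and 84.6 at 24 h of strain and 66.6, 57.5 and 58.4 at 1 h of strain. In unstrained fascicles it read 957, 827 and 1307 at 24 h and 59.5, 57.0 and 56.6 at 1 h. Only the unstrained 24 h arrays were bright, and the difference of the time effects was -3.49 ± 0.21 (adjusted p = 8.16e-06).

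Hp (haptoglobin, which binds free haemoglobin) read 69.4, 74.7 and 69.8 at 24 h of strain and 70.8, 59.2 and 58.5 at 1 h of strain. In unstrained fascicles it read 470.1, 563 and 647 at 24 h and 64.3, 49.0 and 59.4 at 1 h. Its change under strain was 0.19 ± 0.11 (adjusted p = 0.313), and the difference was -3.09 ± 0.19 (adjusted p = 8.16e-06). Cyp4b1, a cytochrome P450, differed by -2.24 ± 0.20 (adjusted p = 4.47e-04) and Asgr1, a hepatic lectin, by -1.87 ± 0.24 (adjusted p = 0.00974). Cyp4b1 changed by 0.89 ± 0.16 under strain and by 3.12 ± 0.11 without it, and Asgr1 stood at 0.11 ± 0.12 under strain (adjusted p = 0.599) and at 1.99 ± 0.19 without it. Of the 8 kept acute-phase genes (20 on the array), 2 were higher under strain, Orm1 (0.64) and Hpx (0.43), and 6 were higher without it. Over all kept probes 10.03% were higher under strain and 8.998% without it. The medians of the 8 were 0.31 under strain and 2.41 without it. The filter used the mean over all arrays, so brightness in unstrained fascicles at 24 h alone can help to keep a gene. The count of 6 and the median of 2.41 may therefore follow in part from the filter. The other acute-phase genes on the array were dropped as dim and are not counted. Hpx lost its call under strain in 5 of the 6 fits without an array. Lcn2 and Lbp stood at 2.68 ± 0.81 and 0.89 ± 0.41 under strain, neither past the test, with a wide spread among the 1 h arrays. For the difference itself, 2 of the 8 acute-phase genes were called without a block and 6 with the block at 1 h alone, all lower. The filter may bear on these counts in the same way.

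Nfil3 fell under strain (-1.74 ± 0.13) and did not pass the test without it (-0.20 ± 0.14, adjusted p = 0.391), with 398, 496 and 371 at 24 h and 427, 522 and 502 at 1 h without strain. The difference was -1.54 ± 0.20 (adjusted p = 0.00974). Among the other probes, Plpp3, a lipid phosphatase, fell in both states and further under strain, with a difference of -1.33 ± 0.18. Bst1, an ectoenzyme that makes cyclic ADP-ribose, and Rnf125, a ubiquitin ligase, differed by -1.33 ± 0.19 and -1.10 ± 0.17. These 3 genes were named after their values were seen, and the ninth probe has no gene name here. Without a block the 5 fixed proteinase genes did not pass. Their differences were -1.76 ± 0.37 for Adamts1 (adjusted p = 0.129), -1.67 ± 0.28 for Adamts5 (adjusted p = 0.073), -1.52 ± 0.36 for Mmp14 (adjusted p = 0.172), -1.18 ± 0.23 for Mmp13 (adjusted p = 0.108) and -0.25 ± 0.33 for Mmp3 (adjusted p = 0.910). With the block at 1 h alone Adamts5 (adjusted p = 0.00559), Mmp14 (0.0106), Adamts1 and Mmp13 (0.0423 each) passed, and Mmp3 did not (0.725).

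**Figure D5:**
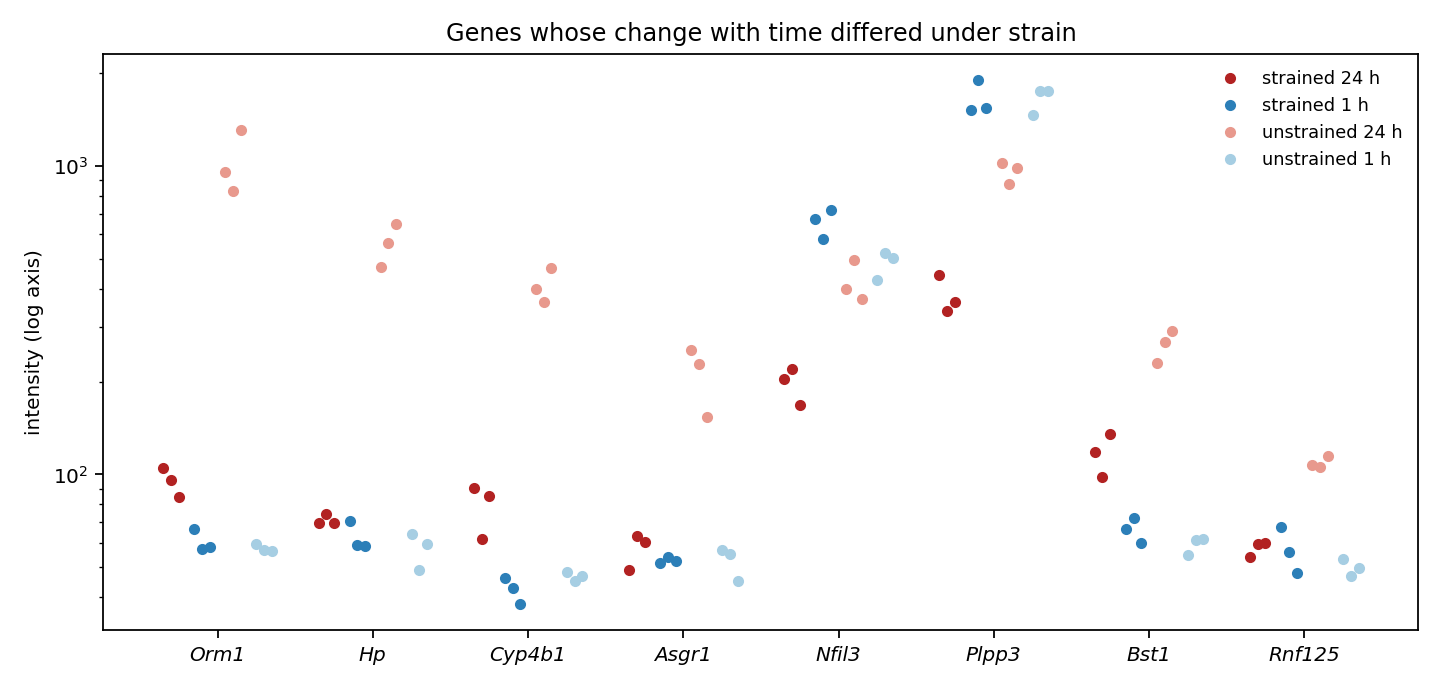
Intensity (log axis) in the 4 groups of 3 arrays for the 8 named genes whose time effect differed between strained and unstrained fascicles without a block, 1 point per array. Orm1, Hp, Cyp4b1, Asgr1, Bst1 and Rnf125 are brightest in unstrained fascicles at 24 h, and Nfil3 and Plpp3 are lowest in strained fascicles at 24 h.

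Of the probes called in both states, 4 had opposite signs. They were Isyna1 (-0.82 under strain, 0.86 without), Pxylp1 (-0.39 under strain, 0.84 without), Ypel5 (-0.33 under strain, 0.69 without) and a probe with no gene name here, named after their values were seen. None of the 4 was called for the difference itself without a block, and with the block at 1 h alone Pxylp1 (adjusted p = 0.0197) and Isyna1 (0.0290) were.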

How the data were processed

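Total RNA of 12 samples was biotin-labelled and read on 1-colour Illumina rat arrays, 3 samples for each of 4 groups taken from the sample titles. The intensity values deposited by the authors hold 22517 probes. Their sorted values agree between arrays to within 0.0928%, as quantile normalization leaves them, so no further normalization was applied; for the software, the background correction and the probe filter the labels are silent. A further deposited table holds 24 columns of per-array values named only by number, which could not be tied to samples and were not used, so no detection p-value entered the tests. Because intensity carries no read depth, precision is limited by the number of arrays.

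Intensities were taken to log2, and the 50% of probes with the highest mean over all 12 arrays were kept. limma 3.58.1 in R 4.3.3 was fitted to the 6 strained arrays without a block, with Benjamini-Hochberg adjustment over all kept probes and a call at an adjusted p under 0.05. Residual variance had 4 degrees of freedom plus 3.96 from the prior. The unstrained time change was fitted on the 6 unstrained arrays, and the difference of the time changes on all 12. The fits were run on simulated data with independent noise on each array, and the median estimate of the larger effects came back close to the effect put in. Samples that deviate together, as at 1 h, were not simulated.

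Replicates carry the numbers 1 to 3 in each group. Same-numbered deviations at 24 h and 1 h of strain correlated at 0.193, 0.00915 and 0.101, so these numbers were not taken as pairs. Strained and unstrained samples at 1 h did pair, at 0.604, 0.537 and 0.521, and those at 24 h, at 0.0387, 0.309 and 0.388, were not taken as pairs. At both times the best partner of each strained array was the unstrained array of its number. Whether the 24 h samples were paired is therefore not settled.

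Gene symbols came from GEO's platform annotation: 13787 probes had 1 symbol, none had several and 8730 were unnamed here. A gene with several kept probes is given by the brightest. The text names the 15 largest rises and 15 largest falls without overlap between the times, up to 4 members of smallest p in each list described, the 5 largest in each direction for the difference, and 23 fixed genes; any other gene is marked as chosen after its values were seen. The members, the 49 gene lists and the fixed genes were chosen with earlier results of these data known. Promoter sequences are from RefSeq, build GRCr8, matched by symbol for 6505 of the 7780 kept genes. Alternatives tried were the probe filter, background subtraction, cyclic loess, the variance model, array weights, all 12 arrays in the fit, the replicate block and each array left out; the block at 1 h alone was added after seeing the data. matplotlib 3.10.9 (Python 3.11.15) drew the figures.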

Additional observations from a re-analysis of the deposited data

Results flagged for a closer look

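The time effect differed between strained and unstrained fascicles for 9 probes by limma's test of the difference over all 12 arrays without a block, and in each of the 9 the strained effect was the lower one. On the log2 scale the strained minus unstrained effect was -3.49 for Orm1, -3.09 for Hp, -2.24 for Cyp4b1, -1.87 for Asgr1, -1.54 for Nfil3, -1.33 for Plpp3 (adjusted p = 0.0146), -1.33 for Bst1 (adjusted p = 0.0152) and -1.10 for Rnf125 (adjusted p = 0.0297). The probe with no gene name here differed by -2.69 (adjusted p = 0.00397).

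All 9 stayed called with each of the 3 replicate blocks and with cyclic loess, and 7 to 9 of them without any 1 of the 12 arrays.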

How the results depend on the processing

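The number of probes called for time under strain, 1989, lay between 1898 and 2333 with another filter, background, normalization, variance model, array weighting or with all 12 arrays in the fit. Without an array in turn it ran from 1060 to 1761. With the replicate block, though these numbers were not taken as pairs, it was 2031, of which 1794 were among the 1989. For unstrained time the count was 1803, with a range of 800 to 1576 without an array (800 without unstrained replicate 1 at 24 h) and 1663 with the block. For the difference of the time effects the count was 9, with a range of 7 to 16 without an array, reaching 15 without strained 1 h replicate 3 and 16 without unstrained 1 h replicate 1. It was 19 with a variance trend and robust estimation, 30 with the replicate block over all 12 arrays, 184 with the block within each time and 80 with the replicate block at 1 h alone, and these 4 fits all held the 9. None of the 153 named genes called under strain changed direction, and 124 were called in every fit that tested them. The stricter filter did not test every named gene. Of the 28 not called, 4 turned sign. Mmp3 stood at -0.029 with cyclic loess and at -0.00636 to 0.31 over the fits without an array (below 0 without strained replicate 2 of either time). The same fits gave -0.33 to 0.019 for Mmp14 (above 0 without 1 h replicate 3), -1.11 to 0.19 for Il6 (above 0 without 24 h replicate 3 or 1 h replicate 1) and -0.00538 to 0.24 for Mtf1 (below 0 without 1 h replicate 1). The median of actin and SRF or YAP targets ran from -0.20 to 0.035 over them (above 0 without 1 h replicate 3), and that of the Wnt pathway was 0.056 with the stricter filter. The cause of these changes was not tested, beyond the fewer arrays or probes of the fits concerned. Signal near background limits dim genes, the array's maximum limits Timp1 and Col1a2, and nearness to it limits Dcn.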

Other observations

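Among lysosomal genes, 6 of 22 kept members fell (27.3%, against 7.64% of all kept probes) and none rose at 24 h against 1 h of strain. Their median was -0.11. The 6 include Ctss and Ctsk, which were also counted among the matrix proteinases. Psap (prosaposin), the precursor of activators of sphingolipid breakdown, read 186, 186 and 188 at 24 h and 382, 378 and 423 at 1 h (-1.08 ± 0.09, limma adjusted p = 8.60e-04). Lamp2, a lysosomal membrane protein, stood at -1.10 ± 0.11. Of 20 kept heat shock genes 3 rose and 3 fell (15% each), where 10.03% of all kept probes rose and 7.64% fell. Their median was 0.02, and -0.08 with cyclic loess. The mitochondrial chaperonin Hspd1 and its co-chaperonin Hspe1 rose, at 0.90 ± 0.11 and 0.77 ± 0.12, as did Chordc1 at 0.77 ± 0.11. Bag3, a co-chaperone of small heat shock proteins, fell, at -0.69 ± 0.12.

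Of 20 kept hypoxia targets 5 rose (25%) and 4 fell (20%), where 10.03% of all kept probes rose and 7.64% fell. They include Ldha and Pgk1, which rose, and Hmox1, which fell, all given above with other genes. Angptl4, a secreted inhibitor of lipoprotein lipase, chosen as the member of smallest p, read 141, 145 and 169 at 24 h and 58.9, 45.2 and 41.6 at 1 h (1.66 ± 0.15, adjusted p = 8.89e-04). Of 17 kept growth factors 4 fell (23.5%) and none rose, led by Fgf2, a fibroblast growth factor (-0.99 ± 0.10), and Pdgfa, a platelet-derived growth factor chain (-0.94 ± 0.10). Of 16 kept integrin and focal adhesion genes 4 fell (25%) and 1 rose (6.25%). Tns1 (tensin), which ties integrins to actin, stood at -1.01 ± 0.10, and Fermt2 (kindlin 2), an integrin activator, at -0.85 ± 0.12. Among 9 kept markers of the tendon sheath and its progenitors 3 fell (33.3%), 1 in the fit without strained replicate 2 at 24 h and 5 with cyclic loess. Igfbp6, a binding protein of insulin-like growth factor, read 2162, 1800.0 and 1058 at 24 h and 5122, 4053 and 4073 at 1 h (-1.45 ± 0.25, adjusted p = 0.00691). Of 24 kept interferon and MHC class I genes 1 was lower (4.17%, against 7.64% of all kept probes) and none was higher. It was RT1-S3, an MHC class I gene, with 138, 71.2 and 73.5 at 24 h and 739.8, 526 and 289.6 at 1 h (-2.43 ± 0.37, adjusted p = 0.0043). MHC class I genes are near-identical copies of each other, so that signal of a relative cannot be told apart.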
